A study of Mus musculus with 3 samples.

Results

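Cytotoxic granule genes were followed in RNA-seq of cells sorted from mouse lung. The set holds 9 genes, taken by symbol from a deposited table of 48709 genes, namely the granzymes Gzma, Gzmb, Gzmc, Gzmk and Gzmm, perforin (Prf1), the granule membrane protein gene Nkg7, the granzyme B inhibitor Serpinb9 and cathepsin W (Ctsw). The study has 3 libraries in 1 group, wild type (WT), labelled as lung smooth muscle cells. All mice carried creERT2, a Cre recombinase that tamoxifen activates, driven by smooth muscle actin, together with the red fluorescent protein tdTomato. They were 8 weeks old when tamoxifen was given at 75 mg/kg daily for 10 days, and the cells were sorted from digested lung 2 months after that. The labels give neither the sorting gate nor the number of mice behind the libraries, so the p-values measure only the spread between these libraries, which may be technical. Totals were 18896263, 18355813 and 16877297 counts for WT libraries 1, 2 and 3. Levels are given as CPM, counts scaled to 1000000 counts per library. The order of genes by level is given only as CPM per kilobase of exon, since CPM, shares of counts and list medians in CPM also depend on exon length.

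Cytotoxic lymphocytes, mainly natural killer (NK) cells and CD8 T cells, store granzymes and perforin in secretory granules. On contact with a target cell the granules are released, perforin opens pores in the target membrane, and granzymes enter and cleave proteins that start cell death. Apart from Serpinb9, which also protects other cells, these genes are markers of leukocytes and not of smooth muscle. The level of the set was therefore compared with markers of both. Of 8 smooth muscle genes, 7 had a mean of at least 1 CPM and 0 reached 100 CPM. Their summed level was 85.5, 106 and 79.2 CPM in WT libraries 1, 2 and 3, and calponin (Cnn1), a defining marker, was at 0 in library 1. Smooth muscle actin (Acta2), whose promoter drives the Cre, had 11.2, 17.1 and 11.3 CPM. The 9 cytotoxic genes summed to 419, 552 and 844 CPM, of which Serpinb9 gave 46.4, 77.2 and 120.0 CPM. The CD45 gene Ptprc, carried by all leukocytes, had 1360.3, 1429.8 and 1648.8 CPM. In these bulk libraries, a change in the number of cells of a type and a change in RNA per cell cannot be told apart.

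Promoters are shown for 4 genes, because Gzma and Gzmk lie near each other on chromosome 13 and had their highest level in different libraries, and Gzmb and Prf1 are the other main killing genes. Each is the RefSeq sequence of GRCm38.p6 over 250 bases before and 50 bases after the start, written 5′ to 3′. Capitals mark letters that match a T-box site (AGGTGT), a RUNX core (TGTGGT) or an AP-1 site (TGANTCA), searched on both strands; no matches overlap in these 4 promoters.
Gzma, chr13:113100932-113101231, minus strand: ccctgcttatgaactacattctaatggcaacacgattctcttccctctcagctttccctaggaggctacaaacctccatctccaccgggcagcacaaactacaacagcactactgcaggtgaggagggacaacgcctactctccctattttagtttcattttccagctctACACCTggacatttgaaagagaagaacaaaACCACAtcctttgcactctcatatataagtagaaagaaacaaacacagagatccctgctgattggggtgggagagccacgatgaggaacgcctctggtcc
Gzmk, chr13:113180916-113181215, minus strand: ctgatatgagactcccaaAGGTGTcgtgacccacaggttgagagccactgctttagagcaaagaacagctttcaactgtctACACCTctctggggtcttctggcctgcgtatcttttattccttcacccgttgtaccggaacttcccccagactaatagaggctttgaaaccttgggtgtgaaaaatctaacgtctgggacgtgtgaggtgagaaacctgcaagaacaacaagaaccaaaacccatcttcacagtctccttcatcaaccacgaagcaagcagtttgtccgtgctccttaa
Gzmb, chr14:56262285-56262584, minus strand: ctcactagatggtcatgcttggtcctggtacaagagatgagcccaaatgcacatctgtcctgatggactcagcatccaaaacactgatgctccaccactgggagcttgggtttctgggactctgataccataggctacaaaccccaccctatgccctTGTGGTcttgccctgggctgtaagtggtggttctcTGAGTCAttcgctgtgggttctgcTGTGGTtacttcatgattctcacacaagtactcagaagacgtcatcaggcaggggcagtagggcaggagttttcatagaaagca
Prf1, chr10:61297586-61297885, plus strand: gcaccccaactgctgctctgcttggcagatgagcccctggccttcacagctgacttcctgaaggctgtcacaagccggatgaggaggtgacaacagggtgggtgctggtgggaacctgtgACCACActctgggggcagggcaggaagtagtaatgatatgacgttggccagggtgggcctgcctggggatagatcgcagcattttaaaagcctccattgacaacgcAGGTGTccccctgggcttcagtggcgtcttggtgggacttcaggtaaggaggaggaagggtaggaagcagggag
Gzma and Prf1 each hold 1 T-box and 1 RUNX match. Gzmb holds 2 RUNX matches and 1 AP-1 match, and Gzmk holds 2 T-box matches and neither of the others. Over 32851 promoters of the same length, 13.7% hold the T-box letters, 16.8% the RUNX letters and 7.81% the AP-1 letters. A cyclic AMP element (TGACGTCA), which 1.79% of promoters hold, was found only in Gzmc among the 8 members with a promoter in the table. Such matches describe the letters of these windows and not binding.

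Granzyme counts were mostly those of Gzma and Gzmb. Gzma encodes a tryptase-like granzyme (ENSMUSG00000023132, chromosome 13, 113093825 to 113100979). It had 148, 225 and 359 CPM in WT libraries 1, 2 and 3, a mean of 244 ± 107 CPM (SD, n = 3), and was highest in library 3 and lowest in library 1. By CPM per kilobase it ranked 94 of 22005 nuclear protein-coding genes. Gzmb, which cleaves after aspartate and activates caspases (ENSMUSG00000015437, chromosome 14, 56258856 to 56262260), had 78.4, 81.5 and 137 CPM, a mean of 98.8 ± 32.7 CPM. Its levels in libraries 1 and 2 were close and library 3 stood above both. Gzma made up 62.4%, 72.3% and 71.7% of the counts of the 5 granzymes, and Gzmb 33.1%, 26.3% and 27.2%. The 95% Wilson intervals of the Gzma share were 60.9% to 63.8%, 71.1% to 73.5% and 70.7% to 72.7%, for counting error only.

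Gzmk, a granzyme of memory CD8 T cells (ENSMUSG00000042385, chromosome 13, 113171608 to 113225908), had 7.99, 2.23 and 1.48 CPM from 151, 41 and 25 counts. Library 1 was the highest, where Gzma was lowest. The long transcript of Gzmk spans Esm1, an endothelial gene on the other strand that had 2.96, 1.14 and 1.24 CPM, but the annotated exons of the pair share 0 bases. Gzmm (ENSMUSG00000054206, chromosome 10, 79689020 to 79695261), a granzyme that cleaves after methionine, had 2.80, 2.18 and 3.14 CPM, with the libraries close together. Gzmc (ENSMUSG00000079186, chromosome 14, 56231401 to 56234656), the nearest protein-coding gene to Gzmb in its cluster, had 1, 1 and 11 counts. The exact 95% Poisson interval of its level in library 3 was 0.325 to 1.17 CPM, above the upper bounds of 0.295 and 0.304 CPM in libraries 1 and 2, for counting error only. Its relatives Gzmd, Gzme, Gzmf, Gzmg and Gzmn, from the same cluster, had no count in any library. For a count of 0 in library 3, the upper bound of the same 95% Poisson interval is 0.219 CPM. In Gzmc, 4.14% of the 50-base words also occur in another gene, chiefly Gzme, so its counts are uncertain. In Serpinb9 the figure is 0.378%, and in the other members 0%.

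**Figure D1:**
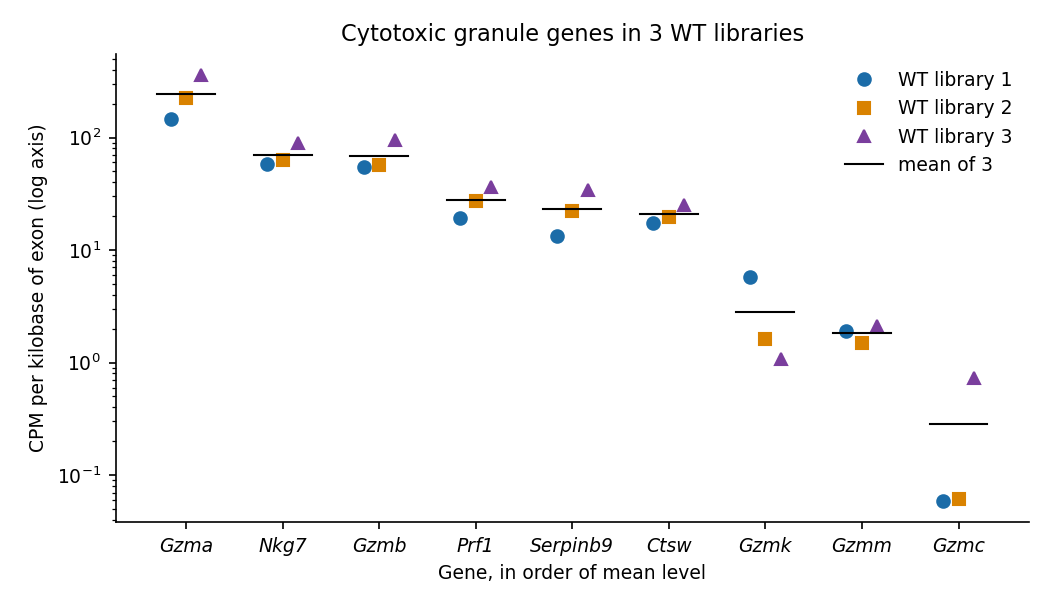
CPM per kilobase of exon (log axis) for the 9 genes in order of mean level; symbols are WT libraries 1 to 3 and the line is their mean. Gzma averages 243 and Gzmc 0.283 CPM per kilobase, library 3 is the highest point of 8 genes (7 with TMM scaling, where Gzmm is highest in library 1), and library 1 is the highest point of Gzmk.

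The pore-forming and granule genes followed Gzma in which library was highest. Perforin, Prf1 (ENSMUSG00000037202, chromosome 10, 61297836 to 61304263), had 49.9, 69.8 and 94.3 CPM in WT libraries 1, 2 and 3. Nkg7, a granule membrane protein needed for degranulation (ENSMUSG00000004612, chromosome 7, 43437073 to 43438249), had 53.0, 57.7 and 81.2 CPM. Ctsw, a cysteine protease of NK and CD8 T cells (ENSMUSG00000024910, chromosome 19, 5465240 to 5468498), had 33.1, 37.1 and 47.1 CPM. In these 3 genes library 3 was the highest and library 1 the lowest. Serpinb9, the inhibitor that protects the killer cell and other cells from granzyme B (ENSMUSG00000045827, chromosome 13, 33003250 to 33017957), had 46.4, 77.2 and 120.0 CPM, with the same order of libraries and wider steps.

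Ordered by CPM per kilobase of exon, the set fell into 6 abundant and 3 scarce genes. Gzma led at 243 ± 106, followed by Nkg7 at 70.0 ± 16.5 and Gzmb at 68.8 ± 22.8. Next came Prf1 at 27.6 ± 8.61, Serpinb9 at 23.2 ± 10.6 and Ctsw at 20.7 ± 3.83. Gzmk at 2.81 ± 2.56, Gzmm at 1.84 ± 0.331 and Gzmc at 0.283 ± 0.386 were the scarce ones. Neighbours were compared inside each library as a log2 ratio of levels per kilobase with 1 added. Of 8 steps, 5 exceeded their SD with the same sign in the 3 libraries. Nkg7 and Gzmb (0.05 ± 0.13), Serpinb9 and Ctsw (0.08 ± 0.42), and Gzmk and Gzmm (0.23 ± 0.92) did not differ beyond their spread. These ratios carry no test, because the smallest p that an exact permutation of signs (two-sided) can give over 3 libraries is 0.25. On the same scale Gzma exceeded Gzmb by 1.76 ± 0.30, Prf1 lay below Gzmb at -1.29 ± 0.21, and Serpinb9 lay below Gzmb at -1.58 ± 0.34. Nkg7 exceeded Prf1 by 1.33 ± 0.18 and Ctsw lay below Nkg7 at -1.70 ± 0.08, a ratio with little spread.

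Whether the libraries differed beyond counting error was tested for all genes with at least 10 counts, by a chi-square test of homogeneity with library sizes scaled by TMM (trimmed mean of M values) and Benjamini-Hochberg adjustment. Of the 9 members, 8 varied at an adjusted p under 0.05, against 70.0% of the 23317 genes tested, so variation as such is near the background. The direction was uneven. Library 3 was the highest in 7 of the 9 with such a call, against 26.5% of all tested genes (20.6% when the level too is scaled by TMM). Library 1 was the highest in 1, Gzmk, against 24.3%. Library 3 also stood apart in composition: it had 30433 genes with a count, against 24939 and 26207 in libraries 1 and 2, and nuclear protein-coding genes took 63.0% of its counts, against 56.9% and 58.8%. MicroRNA genes took 8.36% of its counts, against 15.1% and 12.9%, and the part of this in the direction was not tested. Ratios of library 3 to library 1 are given next from library totals. The adjusted p beside each is that of the test over the 3 libraries and does not test the ratio itself. Gzma was 2.43-fold higher in library 3 than in library 1 (chi-square test, adjusted p = 4.11e-269), Serpinb9 2.59-fold (3.41e-98), Prf1 1.89-fold (5.41e-35) and Gzmb 1.74-fold (6.36e-54). Smaller ratios were those of Nkg7 at 1.53 (1.25e-14) and Ctsw at 1.42 (7.11e-05). Gzmc also passed (adjusted p = 0.00101), on 1, 1 and 11 counts, and Gzmk passed with the opposite direction, a ratio of 0.185 (8.62e-28). Gzmm did not pass (adjusted p = 0.346), and its ratio of library 3 to library 1 was 1.12.

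The library scaling changes these ratios in size. With library totals the median of all tested genes was 0.11 higher in library 3 than in library 1 on the log2(CPM + 1) scale, and with TMM the difference was -0.03. With TMM the ratios became 2.17 for Gzma, 2.31 for Serpinb9, 1.69 for Prf1, 1.55 for Gzmb, 1.37 for Nkg7, 1.27 for Ctsw and 0.165 for Gzmk. The highest library of 8 members was the same with totals, TMM, DESeq2 size factors and the total of nuclear protein-coding genes. For Gzmm it was library 3 with totals and with the protein-coding total, and library 1 with TMM and DESeq2. Without library 3, 4 members varied, against 56.7% of all genes. Gzmb, Nkg7 and Ctsw no longer passed (adjusted p = 0.88, 0.30 and 0.193) and Gzmc had too few counts. Without library 1, 7 members varied, against 38.2% of all genes, and Gzmk did not pass (adjusted p = 0.111). The biological coefficient of variation from edgeR, the relative spread beyond counting error, was 0.266 in common over 16608 genes. Members are better set against the trend that edgeR fits for genes of similar level. Gzma had 0.241 against a trend of 0.161, Serpinb9 0.254 against 0.164 and Gzmk 0.559 against 0.361. Gzmb, at 0.191, and Prf1, at 0.195, also lay above their trends. Nkg7 at 0.169, Ctsw at 0.170 and Gzmm at 0.338 lay below theirs, and Gzmc had no value.

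Markers of lymphocyte types moved between the same libraries. All 8 NK cell genes had counts, and all 8 varied and were highest in library 3. Of all tested genes, 70.0% varied, and 26.5% varied and were highest in library 3 (20.6% with TMM). The NK cell genes had a summed level of 244, 312 and 503 CPM in WT libraries 1, 2 and 3. Ncr1, the NKp46 receptor, had 33.1, 44.6 and 68.4 CPM. The 12 T cell genes summed to 1249.0, 1232.1 and 909 CPM, 12 of 12 varied, and none was highest in library 3. Cd3e, a chain of the T cell receptor complex, had 153, 147 and 98.1 CPM, and the coreceptor Cd8a had 103, 75.5 and 62.0 CPM. B cell genes resembled NK cell genes, with 7 of 7 highest in library 3 and a sum of 587, 884 and 1187 CPM. No NK, T or B cell marker in these lists was at 0. The part of these cell types in the levels of the cytotoxic genes was not tested.

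**Figure D2:**
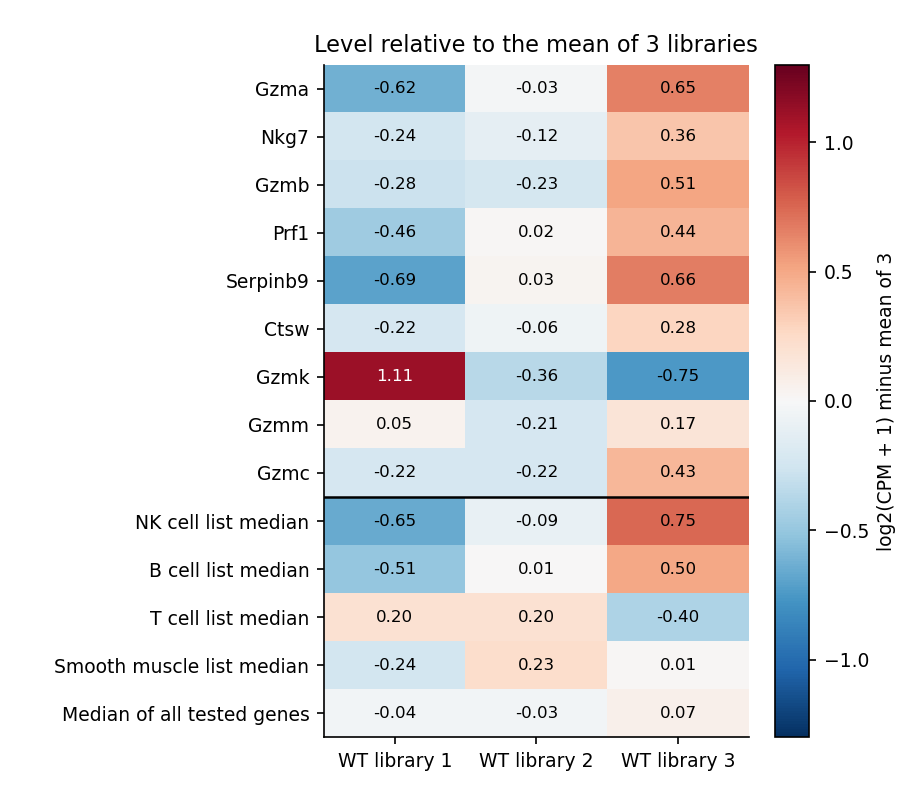
Level in each WT library relative to the mean of 3, as log2(CPM + 1), for the 9 genes (above the line) and for list medians (below it); red is higher and blue lower. Gzma spans -0.62 to 0.65, and Gzmk runs the other way, at 1.11 in library 1 and -0.75 in library 3. The NK cell median is highest and the T cell median lowest in library 3.

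Set against the NK cell list inside each library, Gzma and Serpinb9 varied least. The log2 level of Gzma minus the NK cell median was 3.04, 3.08 and 2.91, an SD of 0.09, against an SD of 0.64 for Gzma alone. For Serpinb9 the SD was 0.11 relative to the NK cell median and 0.68 alone, for Prf1 0.26 and 0.45, and for Gzmb 0.32 and 0.44. The other 5 members had a larger SD relative to NK cells than alone, with Nkg7 at 0.40 and 0.32 and Ctsw at 0.45 and 0.25. Relative to Ptprc the SD was smaller than alone in 8 of 9 members, Gzmk being the exception, and Nkg7 and Ctsw came to 0.18 and 0.11. Relative to the T cell median it was smaller in 1 member, Gzmk, at 0.80 and 0.98. Relative to the B cell median, a comparison added after the values were seen, it was smaller in 6 of 9 members. Prf1 came to 0.05 and Gzmb to 0.23 there, both below their SD relative to NK cells, while Gzma came to 0.14 and Serpinb9 to 0.18. A smaller spread was thus found relative to B cell as well as NK cell genes. As a plain count ratio, chosen after the values were seen, there were 4.47, 5.03 and 5.25 Gzma counts and 1.51, 1.57 and 1.38 Prf1 counts per Ncr1 count in WT libraries 1, 2 and 3.

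Gzmk was also set against Gzma and Cd8a inside each library. As a share of the counts of Gzmk and Gzma together it was 5.13% in library 1 (95% Wilson interval 4.39% to 5.98%), 0.985% in library 2 (0.727% to 1.33%) and 0.410% in library 3 (0.278% to 0.605%). The 3 intervals do not overlap. Relative to Cd8a, the share of Gzmk in the counts of both was 7.20% in library 1 (6.17% to 8.39%), 2.87% in library 2 (2.12% to 3.87%) and 2.33% in library 3 (1.59% to 3.42%). Library 1 lay above the others here as well, and libraries 2 and 3 overlapped. The log2 ratio of Gzmk to Gzma per kilobase was -4.45, -6.43 and -7.44 in libraries 1, 2 and 3.

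**Figure D3:**
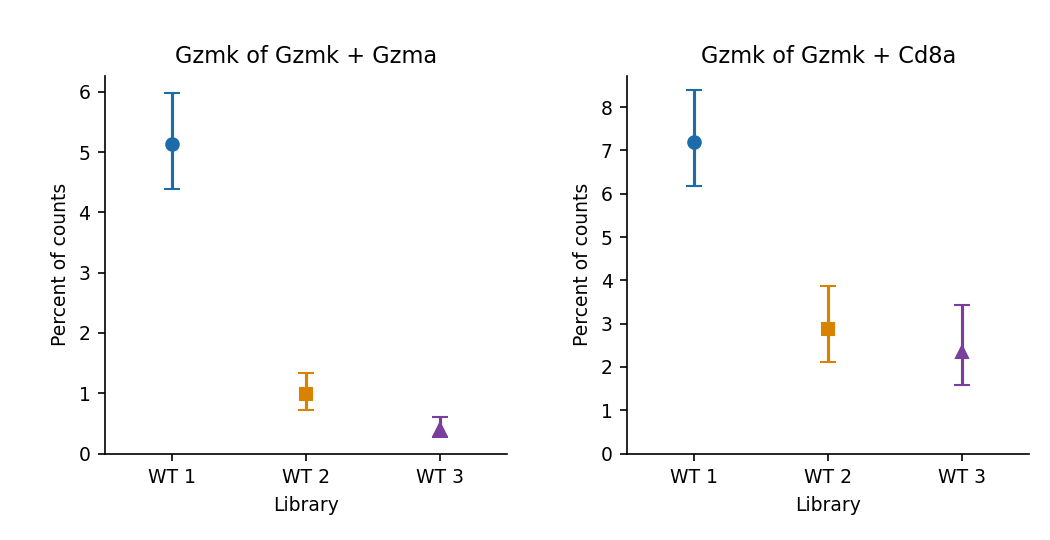
Gzmk as a percentage of the summed counts of Gzmk and Gzma (left) and of Gzmk and Cd8a (right) in each WT library; bars are 95% Wilson intervals for counting error. Library 1 is at 5.13% and 7.20%, above both other libraries.

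The machinery around the granule was measured with further lists. Of 7 genes of granule content and processing, 5 varied, a share near the 70.0% of all tested genes. With library totals 3 of the 7 varied and were highest in library 3, against 26.5% of all tested genes. With TMM 1 of the 7 did so, Srgn, against 20.6%. Serglycin (Srgn), the proteoglycan that packs granzymes, had 159, 190 and 221 CPM (chi-square test, adjusted p = 1.81e-16). Ctsc, the protease that activates progranzymes, had 58.2, 55.4 and 64.4 CPM and did not pass (adjusted p = 0.153). Per kilobase, Srgn led this list at 86.4 ± 14.1 and Ctsl, a lysosomal protease, was lowest at 6.07 ± 1.74 CPM per kilobase. M6pr and Igf2r, the mannose 6-phosphate receptors that sort granzymes to granules, had 18.1 ± 0.795 and 11.3 ± 0.126 CPM per kilobase, and Cst7, an inhibitor of Ctsc, had 11.8 ± 2.62.

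Genes of granule release were expressed in every library and showed no common direction. Of 12 found in the table, 9 varied, a share near the 70.0% of all tested genes. With library totals 3 of the 12 varied and were highest in library 1, against 24.3% of all tested genes. For library 2 the number was 2, and for library 3 it was 4, against 26.5%. With TMM the numbers were 5, 2 and 2 for libraries 1, 2 and 3, against 20.6% for library 3. Coro1a, a regulator of actin in leukocytes, led at 130 ± 2.69 CPM per kilobase, followed by the lysosomal membrane protein Lamp1 at 37.4 ± 2.71 and the actin regulator Was at 25.5 ± 2.17 CPM per kilobase. Lyst, a regulator of lysosome size, had 10.1 ± 0.654, and the adaptor Ap3d1 13.7 ± 0.881 CPM per kilobase. The lowest was the syntaxin Stx11 at 2.93 ± 0.707 CPM per kilobase. The summed level was 1143.8, 1126.1 and 1168.1 CPM in WT libraries 1, 2 and 3.

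Among 9 clade B serpins other than Serpinb9, 5 had enough counts to test and 5 varied, against 70.0% of all tested genes. With library totals 4 of them were highest in library 3, against 26.5% of all tested genes. With TMM 3 of them were, against 20.6%, and Serpinb6a was highest in library 1. Serpinb6b, which in mice inhibits granzyme A, had 33.7, 45.0 and 63.8 CPM and lies 24183 bases from Serpinb9. Serpinb6a and Serpinb1a, which lie in the same cluster on chromosome 13, had 30.9 ± 5.55 and 23.9 ± 6.60 CPM. Serpinb9b, 9459 bases on the other side, had 3.44, 4.79 and 19.7 CPM, so that library 3 stood far above both others. Serpinb9c and Serpinb9e had no count. Serpinb9f and Serpinb9g, at 0.272 and 0.109 CPM on average, are uncertain singly, since 78.7% and 54.8% of their 50-base words occur elsewhere.

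Of 9 genes of proteins that granzymes cleave, 6 varied, a share near the background of 70.0%. Of the 9, 4 varied and were highest in library 1, against 24.3% of all tested genes. Of the others that varied, 1 was highest in library 2 and 1 in library 3. Set, a histone chaperone cut by granzyme A, had 48.3 ± 2.72 CPM per kilobase, Hmgb2 45.2 ± 5.20 and Ndufs3 9.37 ± 0.268 CPM per kilobase. Of their 50-base words, 29.3%, 18.7% and 16.1% occur elsewhere, so these levels are uncertain. Bid, through which granzyme B reaches mitochondria, had 11.2, 7.84 and 7.41 CPM. The repair enzyme Apex1 had 3.43 ± 1.23 CPM per kilobase, and Dfna5 (gasdermin E), which granzyme B can cleave, was lowest at 0.681 ± 0.171.

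Other effector genes were split. Of 6 death ligands and cytokines, 5 varied, against 70.0% of all tested genes. The Fas ligand Fasl had 25.0, 23.3 and 34.4 CPM, interferon gamma (Ifng) 11.2, 11.2 and 18.2 CPM and Tnf 11.6, 10.1 and 14.6 CPM, each highest in library 3. In Ifng, 19.9% of the 50-base words also occur in another gene. Ltb, lymphotoxin beta, had 53.9, 45.1 and 33.1 CPM and Tnfsf10 had 23.7, 13.5 and 16.2 CPM, both highest in library 1. Per kilobase, Ltb led at 29.0 ± 6.91 and Lta was lowest at 1.98 ± 0.351 CPM per kilobase.

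Of 9 transcription factors of cytotoxic lymphocytes, 8 varied, against 70.0% of all tested genes. With library totals 5 of the 9 varied and were highest in library 3, against 26.5% of all tested genes. With TMM 2 of the 9 did so, Tbx21 and Eomes, against 20.6%. The other 6 that varied were highest in library 1 with TMM. Tbx21 (T-bet) had 30.2, 34.5 and 47.8 CPM (adjusted p = 1.42e-09) and Eomes, its relative, had 29.8, 32.2 and 46.9 CPM (adjusted p = 3.13e-10), both from the chi-square test. Per kilobase, Id2, Stat4 and Runx3 were the most abundant, at 30.8 ± 2.44, 17.5 ± 1.27 and 16.5 ± 0.773 CPM per kilobase, and Zeb2 had 9.42 ± 1.04. In Stat4, 21.7% of the 50-base words also occur in another gene. Zfp683 (Hobit), a factor of tissue-resident lymphocytes, was the lowest at 1.28 ± 1.29 CPM per kilobase and had 3.97, 0.272 and 1.42 CPM, with library 1 the highest as for Gzmk.

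**Figure D4:**
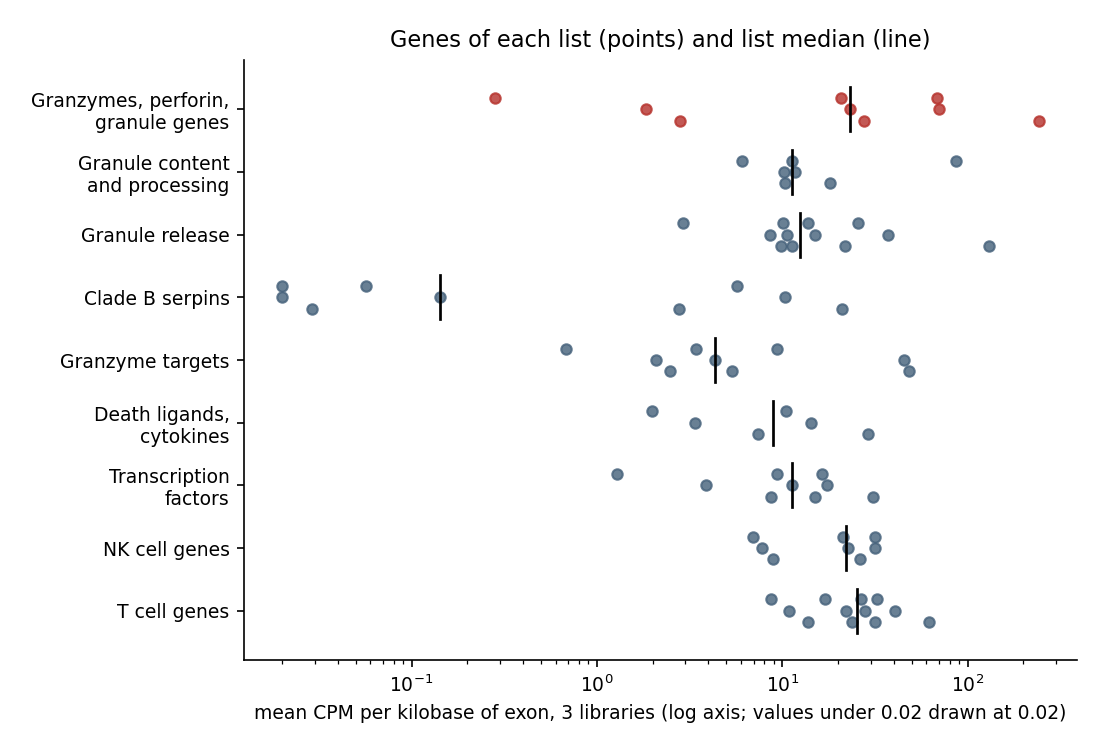
Mean CPM per kilobase of exon over 3 WT libraries (log axis) for each gene (point) and its list median (line). The cytotoxic granule genes have a median of 23.2 and run from 0.283 to 243, against medians of 22.0 for NK cell and 25.2 for T cell genes.

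The median of the 9 genes was 5.57, 5.88 and 6.36 log2(CPM + 1) in WT libraries 1, 2 and 3, beside 2.49, 2.49 and 2.59 for all tested genes. It exceeded the smooth muscle median by 2.26 ± 0.37 and that of NK cell genes by 1.10 ± 0.30, in 3 of 3 libraries. Per kilobase, the difference from smooth muscle genes was 2.66 ± 0.46, and that from NK cell genes was 0.34 ± 0.43, within its spread. Taken as means, which Gzmc, Gzmk and Gzmm lower, the NK cell difference was -0.40 ± 0.42, also within its spread. Against T cell genes the difference was -1.06, -0.75 and 0.33, below 0 in libraries 1 and 2 and above 0 in library 3. Against B cell genes it was -0.72, -0.92 and -0.93, below 0 in 3 of 3 libraries, a mean of -0.86 ± 0.12. Per kilobase the differences were -0.08 ± 0.72 from T cell and -0.10 ± 0.15 from B cell genes, both within their spread. Markers of granulocytes, which carry related proteases, were low. The neutrophil list summed to 29.4, 16.8 and 15.3 CPM, 10 of its 11 genes had a count, and Elane, a protease of the same family, was at 0. The mast cell and basophil list summed to 9.26, 13.5 and 25.9 CPM, 8 of 9 genes had a count, and Mcpt4 was at 0. Plasmacytoid dendritic genes summed to 25.5, 35.6 and 25.5 CPM, with Siglech at 1.16, 0.109 and 0.592 CPM. Macrophage and dendritic genes summed to 794, 273 and 334 CPM, mostly from the lysozyme Lyz2, and were highest in library 1. In Lyz2, 15.4% of the 50-base words also occur in another gene.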

How the data were processed

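The authors deposited whole-number read counts per mouse Ensembl gene, not normalized. The tools were DESeq2 1.18.1, featureCounts 1.6.3, STAR 2.6.1d, Trimmomatic 0.38 and FastQC, per the submitters' processing notes, in an order not stated. The notes name human builds, whereas the gene IDs are mouse, so gene positions are printed as deposited, with no build named; for 4 of the 9 members they equal those of GENCODE M21 (GRCm38). Per the labels' protocols, the libraries were stranded total RNA, which includes unspliced transcripts, and no source used here says how strand was counted, so a gene and an overlapping antisense gene may share counts. Columns named as controls 1 to 3 were taken as WT 1 to 3 by number, since WT is the only group.

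CPM were computed from library totals, and log2 values have 1 CPM added. Exon length, the merged exons of GENCODE M21, was found for 48349 genes. TMM factors (0.952, 0.984 and 1.07 for libraries 1, 2 and 3) and the coefficient of variation came from edgeR 4.0.16 in R 4.3.3, and DESeq2 1.42.0 gave other size factors. The chi-square test and edgeR were tested on simulated data. Precision is limited by counting, 3 counts being 0.159 to 0.178 CPM.

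The members and the 15 other lists were chosen with earlier results of these data known. Of 139 list symbols, 138 were matched. Vamp7 was not used here. Named genes are the members, the 3 highest and the lowest of each list, pair genes, genes next to a member, and 5 genes closest in pattern, of which 1 is not reported here; not all are printed, and others (Cnn1, Cd3e, Cd8a, Acta2, Bid, Mcpt2, Ifng, Tnf, Tbx21, Eomes, Serpinb9f, Serpinb9g, Serpinb9c, Siglech, Esm1, Ptprc, Cpa3, Tpsb2, Mcpt8, Ctsg, Lamp1, Was, Ctsl, Stat4, Dfna5) were chosen after their values were seen. Alternatives were other library scalings, pseudocounts, filters, summaries, level per kilobase and leaving out each library.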

Additional observations from a re-analysis of the deposited data

How the results depend on the processing

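Across 46 results and 359 alternative values, 295 stayed within the replicate spread or on the same side of the threshold, 57 moved, 4 lost their call and 3 reversed. The median of the 9 genes was 6.67 when scaled to the protein-coding total, 4.63 when levels were per kilobase, and 4.71 as a mean. Per kilobase of exon the difference from NK cell genes was 0.34 and that from smooth muscle genes 2.66. Taken as means the difference was 1.67 for smooth muscle and -1.64 for T cells. It was -0.40 ± 0.42 for NK cells (reversed in sign, from 1.10, but within its spread). For the transcription factors it was -0.52 ± 0.23 (reversed, from 0.69). Per kilobase, Ctsw exceeded Ctsc by 0.94, whereas its CPM ratio was -0.60 (reversed). These scales divide by different quantities. Nuclear protein-coding genes took 56.9%, 58.8% and 63.0% of the counts of WT libraries 1, 2 and 3. Merged exons came to 1887 bases in Ctsw and 5808 bases in Ctsc. No test was made of the shifts. The count of members that varied lay between 4 and 8 when 1 library was left out, and was 4 without library 3. Leaving out 1 library gave 5.72 to 6.12 for the median, 0.96 to 1.26 for the difference from NK cell genes, -0.91 to -0.21 from T cell genes, 2.05 to 2.40 from smooth muscle genes, and 4 to 6 steps beyond spread in the order of levels. No paired analysis was possible because the labels hold 1 group. Depth limits Gzmc, Gzmk and Gzmm, which had 1 to 151 counts in a library.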

Other observations

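Of the genes nearest to members, some were highest in the same library as the member. Among all tested genes, 26.5% varied and were highest in library 3, and 24.3% varied and were highest in library 1. Adamts14, a procollagen protease gene 24398 bases from Prf1 on the opposite strand (chromosome 10, 61197112 to 61273438), had 19.4, 41.7 and 75.8 CPM in WT libraries 1, 2 and 3 (chi-square test, adjusted p = 2.25e-111), or 0.390, 0.597 and 0.804 counts per Prf1 count. Cdc20b, 2630 bases from Gzma, had 6, 12 and 57 counts. BC067074, 91176 bases from Gzmk, had 4.71, 1.80 and 1.54 CPM, highest in library 1 as Gzmk was. Not every neighbour did so, and Fibp, 188 bases from Ctsw, had 212, 182 and 147 counts, highest in library 1, where Ctsw was lowest. Cldnd2, 2533 bases from Nkg7, had 4, 40 and 31 counts, highest in library 2. Rpl27a-ps1, 5567 bases from Prf1, had 472, 547 and 448 counts, also highest in library 2. Cdc34, 626 bases from Gzmm, had 16.8, 16.7 and 19.1 CPM with no call (chi-square test, adjusted p = 0.811).

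Cma1, a chymase gene known from mast cells, lies in the cluster of Gzmb on chromosome 14 (55941453 to 55944661) and had 4.92, 9.86 and 19.3 CPM (chi-square test, adjusted p = 2.24e-29). Its library order is that of Gzma, and the mast cell and basophil gene Ms4a2 had 2.49, 2.89 and 4.62 CPM. Other mast cell genes were lower, with Cpa3 at 0.430 ± 0.142 CPM, Tpsb2 at 0.216 ± 0.278 CPM and Mcpt4 at 0. Of the 9 mast cell and basophil genes, 6 could be tested and 4 varied, against 70.0% of all tested genes. With library totals 3 of the 6 varied and were highest in library 3, against 26.5% of all tested genes. Tpsb2 varied and was highest in library 1, against 24.3%. Between Cma1 and Gzmb, the protease genes Mcpt2, Mcpt8 and Ctsg had 6, 2 and 2 counts, all in library 3.

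By Euclidean distance between centred log2(CPM + 1) values of 3 libraries, Pi16, Gnl3, Mapk8ip3 and Cnbd2 were among the genes outside the lists closest to the median pattern of the 9 members, at distances of 0.041 to 0.046. Of 8859 genes compared, 97 lay within a distance of 0.1 and 548 within 0.2, so that likeness over 3 libraries is shared by many genes.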
